A study of Mus musculus with 6 samples.

Results

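Antimicrobial secreted proteins of alveolar type II (AT2) cells were examined as 7 genes taken by symbol from the count files: the lysozymes Lyz1 and Lyz2, lipocalin 2 (Lcn2), serum amyloid A3 (Saa3), complement C3, the complement C5 gene Hc, and the antileukoproteinase gene Slpi. All 7 were found among the 23337 gene symbols of the files, and all 7 were among the 12899 genes that passed the filter on low counts. The mutant group held 3 libraries from mice labelled SpC-CreER/Dlk1flox/ROSA-Tomato, and the wild-type group held 3 libraries from mice labelled SpC-CreER/ROSA-Tomato. Both groups thus carried a red reporter and a CreER under the promoter of surfactant protein C, both were injured with Pseudomonas aeruginosa (PA), and Tomato-positive cells were sorted 10 days after injury. The floxed gene, Dlk1, codes for a transmembrane relative of the Notch ligands. The protocols also mention 8 days of culture, so the labels do not settle whether the sequenced cells had been cultured. They do not say that each library came from its own animal, so the tests here reflect how far these libraries differ, which may be technical, and the sources used here give no age or strain.

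AT2 cells line the alveolus, make surfactant and also secrete proteins that act on inhaled bacteria. Lysozymes cut the peptidoglycan of bacterial cell walls, lipocalin 2 binds the siderophores with which bacteria take up iron, and serum amyloid A3 is an acute-phase protein. C3 is cleaved to an opsonin and an anaphylatoxin, C5 starts the membrane attack complex and yields the anaphylatoxin C5a, and the product of Slpi inhibits neutrophil elastase and is itself antimicrobial. Several of these genes are also expressed by macrophages, neutrophils, airway secretory cells, fibroblasts or mesothelial cells, so markers of those cells are given beside the results.

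The lysozyme genes are neighbouring paralogs on chromosome 10, and the sources used here do not say how reads matching both were counted, so their sequences are shown first. Over the coding sequence without the stop codon, the GENCODE transcripts of Lyz1 and Lyz2 (GRCm38) have 444 bases each and differ at 22 of them, an identity of 95.05%. The stretch from coding base 7 to 156, counted from the first base of the start codon, holds 15 of these differences, which are set in capitals.
Lyz1 coding: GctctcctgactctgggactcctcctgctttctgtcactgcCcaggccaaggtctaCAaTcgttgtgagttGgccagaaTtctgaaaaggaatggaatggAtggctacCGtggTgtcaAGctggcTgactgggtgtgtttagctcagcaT
Lyz2 coding: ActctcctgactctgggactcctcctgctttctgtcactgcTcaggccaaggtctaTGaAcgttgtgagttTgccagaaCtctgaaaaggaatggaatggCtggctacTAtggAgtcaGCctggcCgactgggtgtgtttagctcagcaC
Of all 50-base windows of the Lyz1 transcript, 16.1% also occur in the Lyz2 transcript without a mismatch, and of all 75-base windows 6.22% do. The corresponding shares of the Lyz2 transcript are 15.4% and 5.96%. Most windows of these lengths thus differ between the paralogs by at least 1 base, and the single genes are given together with their sum.

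The RefSeq promoters of the pair are also alike near the start of transcription. Of the 100 bases before the start, 92 are identical, and the 8 that differ are in capitals. The Lyz1 stretch lies on the minus strand at chr10:117292869-117292968 (GRCm38.p6).
Lyz1 promoter: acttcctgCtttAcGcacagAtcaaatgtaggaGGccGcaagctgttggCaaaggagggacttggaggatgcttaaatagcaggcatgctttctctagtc
The Lyz2 stretch lies on the minus strand at chr10:117282273-117282372.
Lyz2 promoter: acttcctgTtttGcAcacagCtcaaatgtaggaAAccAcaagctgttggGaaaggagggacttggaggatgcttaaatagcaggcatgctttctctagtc

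Library totals ran from 22511461 to 30695994 counts, and the limit that a count of 0 allows, 3 counts, corresponded to 0.0977 to 0.133 CPM, the usual depth-scaled count. The targeted gene Dlk1 had 2, 0 and 0 counts (mutants 1 to 3), against 2, 0 and 2 counts (wild types 1 to 3), which is under that limit and checks no label. The 10 AT2 markers summed to 135735 to 150029 CPM of the library total in the mutants and 147133 to 171463 CPM in the wild types, so markers of the labelled cell type were abundant in all 6. Mutant 1 stood apart in markers of other cells. In it, the summed level was 39.5 times the mean of the other 5 libraries for neutrophil markers, 49.9 times for fibroblast, 11.0 times for macrophage and monocyte, 14.5 times for club and goblet, 12.3 times for mesothelial, 18.1 times for endothelial, 41.4 times for leukocyte and 2.35 times for ciliated markers. Wild type 2 also stood apart, with Xist, which is transcribed from the silenced X, at 185 CPM against at most 2.93 CPM in each other library, and the Y-linked gene Ddx3y at 2.88 CPM against 49.8 to 78.2 CPM. Results are therefore given with and without these libraries where that moves them.

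Together the 7 genes took 3.23%, 4.25% and 4.33% of all counts (mutants 1 to 3), against 4.84%, 4.01% and 4.04% (wild types 1 to 3). Most of this was Lyz2. Levels between genes were compared per kilobase of GENCODE transcript, on the scale of TMM-normalised CPM that is used for gene levels from here on. Per kilobase, Lyz2 averaged 19420 ± 2253 CPM in the mutants and 23125 ± 3156 CPM in the wild types (SD, n = 3 each), and it ranked 2 of 11268 genes with a known length in each of the 6 libraries. Lyz1 followed with 2777 ± 1309 CPM per kilobase in the mutants and 3607 ± 1139 in the wild types. Lcn2 averaged 1696 ± 408 and 1672 ± 80.4 CPM per kilobase in mutants and wild types, and Hc 1372 ± 549 and 1208 ± 364. These 3 genes overlapped in their ranges over the 6 libraries (1270 to 4894 for Lyz1, 1331 to 2137 for Lcn2 and 756 to 1809 for Hc). Within every single library Lyz1 was above Hc, while the place of Lcn2 relative to each of them changed between libraries. C3 averaged 142 ± 27.4 and 141 ± 14.9 CPM per kilobase in mutants and wild types, Slpi 40.4 ± 1.37 and 41.6 ± 9.10, and Saa3 7.10 ± 4.32 and 2.54 ± 0.82. The last 3 did not overlap each other or the 4 higher genes in any library.

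**Figure D1:**
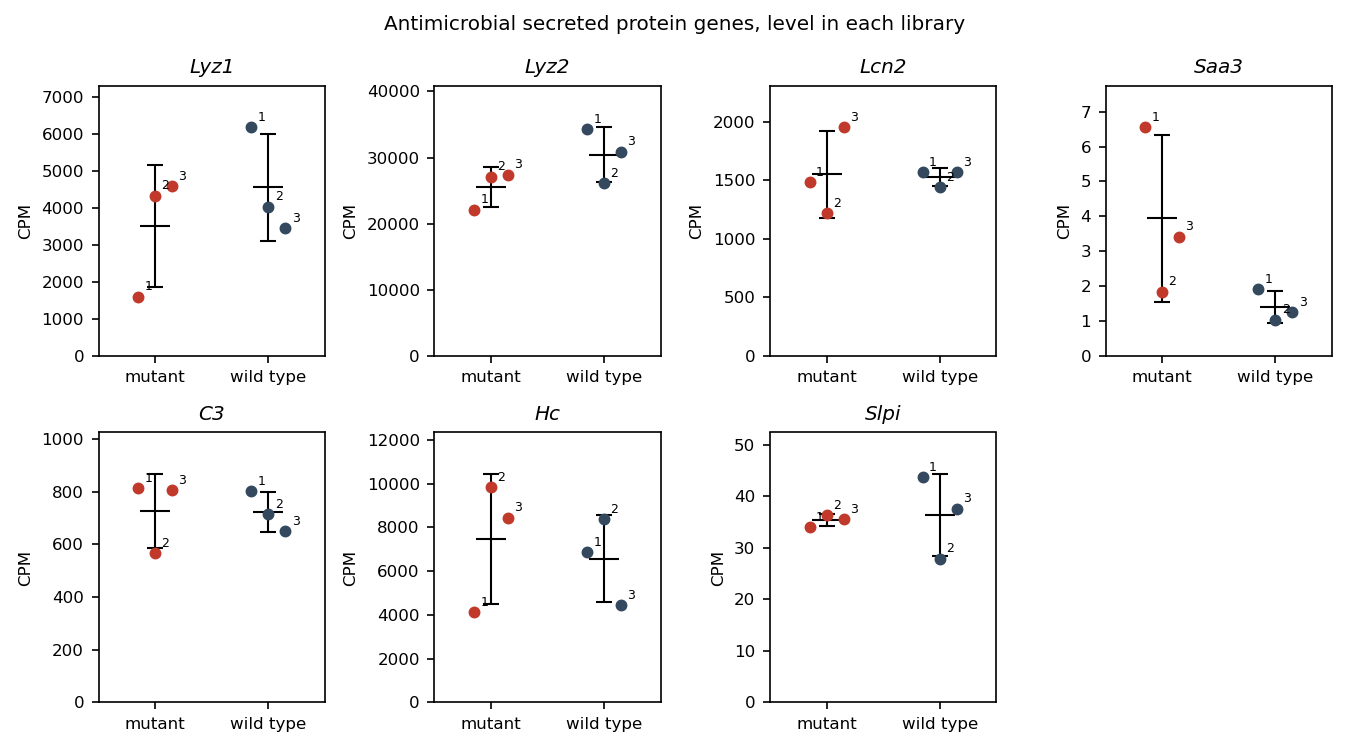
Level of each of the 7 genes in every library, in TMM-normalised CPM on linear axes that start at 0. Points are libraries labelled with their replicate number, and bars give the mean and SD of 3 libraries. Mutant and wild-type libraries overlap in every panel. Mutant 1 is the lowest library for Lyz1, Lyz2 and Hc and the highest for Saa3 and, by a small margin, for C3.

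None of the 7 genes was called by the quasi-likelihood test of edgeR at a 5% threshold on the Benjamini-Hochberg adjusted p, where 0% of all 12899 tested genes were. DESeq2 called 0.18% of its genes as higher and 0.127% as lower, none of them among the 7. The mutant and wild-type libraries overlapped for all 7 genes, while 11.7% of all tested genes did not overlap (5.23% with the mutants higher and 6.43% with the mutants lower). Of the 7 log2 fold changes 4 were positive and 3 negative, with a median of 0.011 beside 0.0048 for all tested genes. At an unadjusted p under 0.05 edgeR gave 1 of the 7, Saa3 on the higher side, where 3.69% of all genes were higher and 2.89% lower at that level. In these bulk libraries fewer cells of a type and less RNA per cell cannot be told apart.

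The lysozymes come first as the most abundant of the group. Lyz2, the lysozyme of macrophages that AT2 cells also make, stood at 22138, 27101 and 27430 CPM (mutants 1 to 3), against 34342, 26071 and 30883 CPM (wild types 1 to 3). Mutant 1 was the lowest, and mutants 2 and 3 lay above wild type 2. Mutant 1 held 0.759 times the mean Lyz2 of the other libraries, and 11.0 times their mean macrophage and monocyte marker sum. The part of macrophages in the Lyz2 level was not tested. The log2 fold change was -0.25 ± 0.16 (SE; 95% interval -0.63 to 0.13, edgeR adjusted p = 0.765), which in linear terms leaves room for 0.645 to 1.09 times the wild-type level. Without mutant 1 and without wild type 1, each left out alone, the estimate was -0.16.

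Lyz1, the paralog best known from Paneth cells of the gut, stood at 1604, 4330 and 4589 CPM (mutants 1 to 3), against 6181, 4036 and 3448 CPM (wild types 1 to 3). Mutant 1 was below every other library, while mutants 2 and 3 lay inside the range of the wild types. The log2 fold change was -0.38 ± 0.40 (SE; -1.33 to 0.57, edgeR adjusted p = 0.843). Without mutant 1 it was -0.029 and without wild type 1 it was -0.092, so its size rested on these libraries. Its highest level was 3.85 times its lowest, the widest spread but 1 among the 76 genes that averaged at least 1000 CPM, and 1.79 times without mutant 1, when it ranked 8.

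The balance between the paralogs did not separate the groups. Lyz1 made up 6.76%, 13.8% and 14.3% of the summed lysozyme counts (mutants 1 to 3), against 15.3%, 13.4% and 10.04% (wild types 1 to 3). Each share had a 95% Wilson interval that reached at most 0.079 percentage points to either side, for counting error only. Mutant 1 was lowest, and wild type 3 was lower than each of the other 4. The means were 11.6% ± 4.22 in the mutants and 12.9% ± 2.64 in the wild types (SD, n = 3 each; two-sided exact permutation p = 0.70, where 0.10 is the smallest that 3 against 3 allows). The difference was -1.28 percentage points with all libraries and 1.15 without mutant 1, so its sign rested on that library. The sum of both genes averaged 29064 ± 4619 CPM in the mutants and 34988 ± 5239 CPM in the wild types, with a log2 fold change of -0.27 ± 0.18 (SE; edgeR adjusted p = 0.773).

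**Figure D2:**
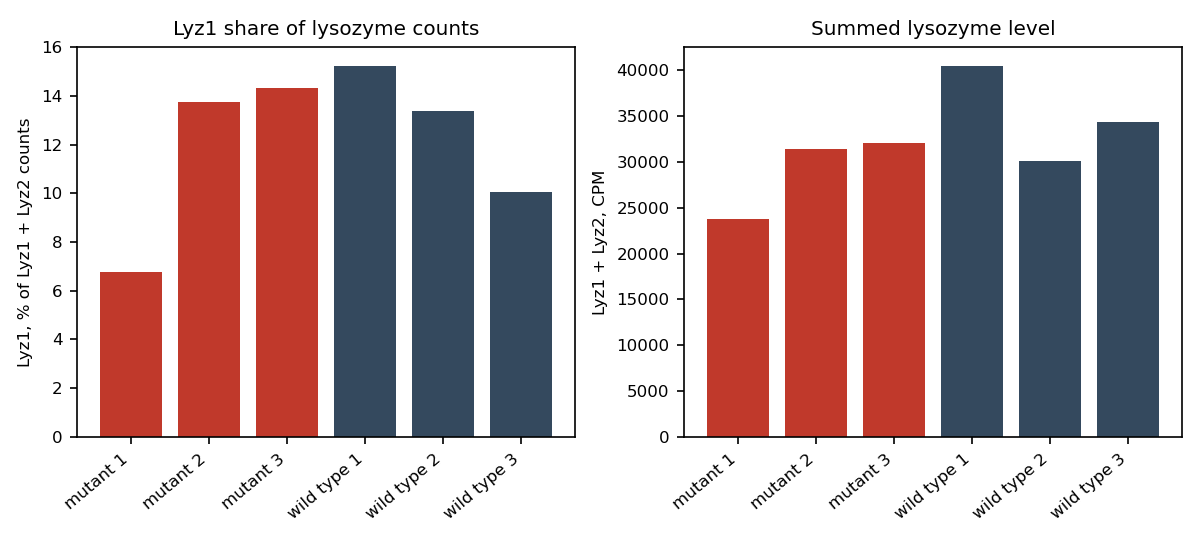
Left, Lyz1 as a percentage of the Lyz1 plus Lyz2 counts of each library; right, the sum of both genes in TMM-normalised CPM. Each bar is 1 library and both axes start at 0. The Lyz1 share is 6.76% in mutant 1 and between 10.04% and 15.3% in the other 5, and the sum is lowest in mutant 1 and highest in wild type 1.

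The acute-phase genes Lcn2 and Saa3 followed. Both are known to respond to inflammatory cytokines through NF-kB and C/EBP factors, so the 250 bases before their RefSeq starts (GRCm38.p6, minus strand) are shown with matches to GGG, any 5 bases and CC, the ends of an NF-kB site, and to TTGCNNAA, a C/EBP core, in capitals. Both strands were searched.
Lcn2 at chr2:32387740-32387989: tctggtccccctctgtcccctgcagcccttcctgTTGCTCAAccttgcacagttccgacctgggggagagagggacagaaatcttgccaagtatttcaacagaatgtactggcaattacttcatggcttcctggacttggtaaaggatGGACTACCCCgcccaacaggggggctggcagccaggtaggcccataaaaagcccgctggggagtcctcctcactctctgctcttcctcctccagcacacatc
Saa3 at chr7:46715677-46715926: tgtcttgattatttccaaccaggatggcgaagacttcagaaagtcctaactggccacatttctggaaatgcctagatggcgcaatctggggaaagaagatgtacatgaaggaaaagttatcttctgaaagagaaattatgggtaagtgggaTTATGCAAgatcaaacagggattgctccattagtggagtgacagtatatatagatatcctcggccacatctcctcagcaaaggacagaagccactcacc
Lcn2 has 1 match to each motif, with first bases at -102 for NF-kB and -216 for C/EBP, which do not overlap. Saa3 has 1 match to the C/EBP letters at -99 and none to the NF-kB letters in this window. C3 has 4 matches to the NF-kB letters, of which the pair at -197 and -196 overlaps, and 1 to the C/EBP letters. Lyz1 and Slpi have 1 match each to the C/EBP letters, and Lyz2 and Hc have no match to either motif. No member matched a STAT site, TTCNNNGAA. Of 27025 promoters of this length, 45.4% hold the NF-kB letters, 9.55% the C/EBP letters and 7.18% the STAT letters, and a match is only a description of the sequence.

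Lcn2 stood at 1483, 1218 and 1955 CPM (mutants 1 to 3), against 1574, 1445 and 1570 CPM (wild types 1 to 3). The mutants spread wider and held both the lowest and the highest library. The means were 1552 ± 374 CPM in the mutants and 1530 ± 73.5 CPM in the wild types (SD, n = 3 each), with a log2 fold change of 0.02 ± 0.17 (SE; -0.39 to 0.43, edgeR adjusted p = 0.984). The interval spans 0.764 to 1.35 times the wild-type level. Neutrophils store lipocalin 2 in their granules, and 10 of 12 neutrophil markers were higher in mutant 1 than in every other library. Their sum ran from 2.36 to 109 CPM in the mutants and from 1.24 to 5.86 CPM in the wild types, with Camp at 0 outside mutant 1. Mutant 1 held 0.955 times the mean Lcn2 of the other 5 libraries. The part of neutrophils in the Lcn2 level was not tested.

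Saa3 was the scarcest of the 7, with 215, 43 and 97 counts (mutants 1 to 3), against 42, 26 and 31 counts (wild types 1 to 3). In CPM these were 6.55, 1.84 and 3.42 (mutants 1 to 3), against 1.92, 1.04 and 1.26 (wild types 1 to 3). Mutants 1 and 3 lay above every wild type, and mutant 2 lay below wild type 1. The means were 3.94 ± 2.40 CPM in the mutants and 1.41 ± 0.46 CPM in the wild types (SD, n = 3 each). The log2 fold change of 1.49 ± 0.53 (SE; 0.24 to 2.73) had an unadjusted p of 0.0258 and an edgeR adjusted p of 0.737, so it was not called. Without mutant 1 it was 0.91 (edgeR unadjusted p = 0.0806, adjusted p = 0.819), and without both mutant 1 and wild type 2 it was 0.74 (edgeR unadjusted p = 0.195, adjusted p = 0.998). In all 3 pairs of the same replicate number the mutant was the higher library, and with that number as a block the estimate was 1.35 (edgeR unadjusted p = 0.0129, adjusted p = 0.679), also not called. The labels do not state such a pairing. Saa3 is also made by fibroblasts, mesothelial cells and macrophages, whose markers were higher in mutant 1 than in every other library for 7 of 7, 5 of 5 and 11 of 12 genes. The fibroblast sum ran from 3.50 to 219 CPM in the mutants and from 3.59 to 6.98 CPM in the wild types, with Lum at 0 outside mutant 1. The mesothelial sum ran from 0.97 to 59.5 CPM in the mutants and from 4.81 to 6.31 CPM in the wild types, and the macrophage sum from 51.3 to 759 CPM in the mutants and from 32.8 to 105 CPM in the wild types. The part of these cells in the result was not tested. The related liver genes Saa1 and Saa2 had at most 1 and 5 counts in any library, and at most 1.78% of 50-base windows of the Saa3 transcript occur in theirs.

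**Figure D3:**
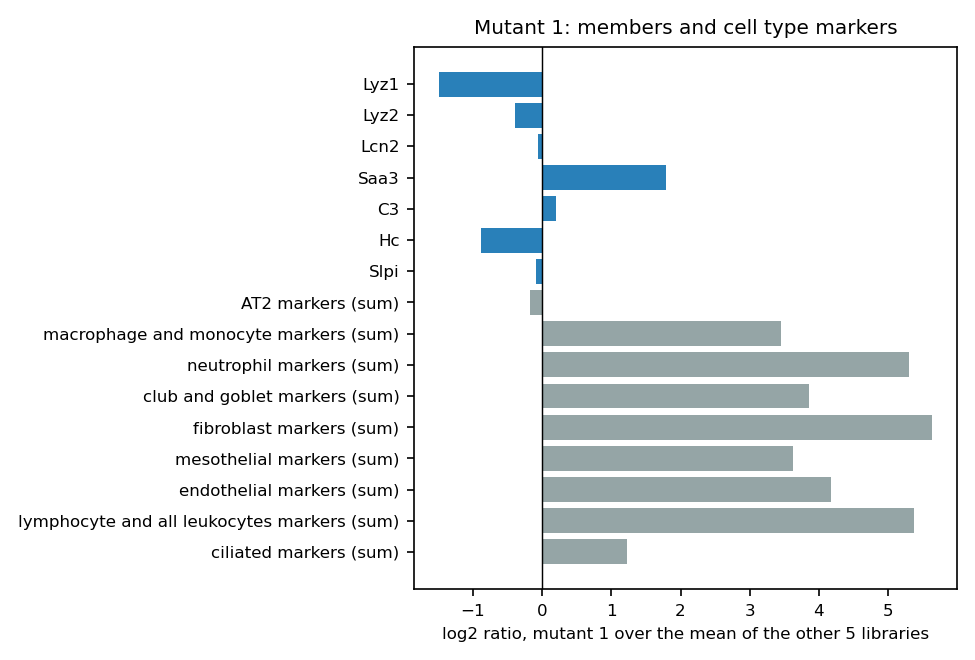
Log2 ratio of mutant 1 to the mean of the other 5 libraries for the 7 genes (blue, TMM-normalised CPM) and for summed markers of each cell type (grey, CPM of the library total). Marker sums other than those of AT2 cells lie to the right of 0, from 2.35 times (ciliated) to 49.9 times (fibroblast), Saa3 is the only gene of the 7 with a ratio above 3 (3.46), and Lyz1 has the lowest ratio (0.355).

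Of the complement proteins, C3 stood at 813, 566 and 806 CPM (mutants 1 to 3), against 802, 715 and 650 CPM (wild types 1 to 3). The lowest and the highest library were again both mutants. The log2 fold change was 0.01 ± 0.16 (SE; -0.37 to 0.39, edgeR adjusted p = 0.989), and the interval spans 0.774 to 1.31 times the wild-type level. Fibroblasts and mesothelial cells also make C3, and mutant 1, with 49.9 and 12.3 times the marker sums of these cells, held 1.15 times the mean C3 of the other libraries. The part of these cells in the C3 level was not tested.

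Hc, which encodes C5, stood at 4117, 9848 and 8453 CPM (mutants 1 to 3), against 6886, 8389 and 4458 CPM (wild types 1 to 3). The low libraries were mutant 1 and wild type 3, across the groups. Its highest level was 2.39 times its lowest, which ranked 6 among the 76 abundant genes, and 2.21 times without mutant 1, which ranked 5. The log2 fold change was 0.18 ± 0.35 (SE; -0.65 to 1.02, edgeR adjusted p = 0.915), with room for 0.638 to 2.02 times the wild-type level. Without mutant 1 the remaining mutants lay above all 3 wild types, with a log2 fold change of 0.48 (edgeR unadjusted p = 0.0758, adjusted p = 0.819). Without both mutant 1 and wild type 2 it was 0.70 (edgeR unadjusted p = 0.0105, adjusted p = 0.998). Without mutant 2 or without wild type 3 the sign turned, at -0.069 and -0.034, so the direction of Hc depended on which library was left out.

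Slpi, the elastase inhibitor, stood at 34.1, 36.4 and 35.6 CPM (mutants 1 to 3), against 43.7, 27.9 and 37.6 CPM (wild types 1 to 3). The mutants lay close together inside the range of the wild types. The log2 fold change was -0.04 ± 0.16 (SE; -0.42 to 0.33, edgeR adjusted p = 0.962), and it turned to 0.014 when counts were scaled by library totals alone. Club cells also express Slpi, and mutant 1, with 14.5 times the club and goblet marker sum, held 0.939 times the mean Slpi of the others. The part of club cells in the Slpi level was not tested.

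**Figure D4:**
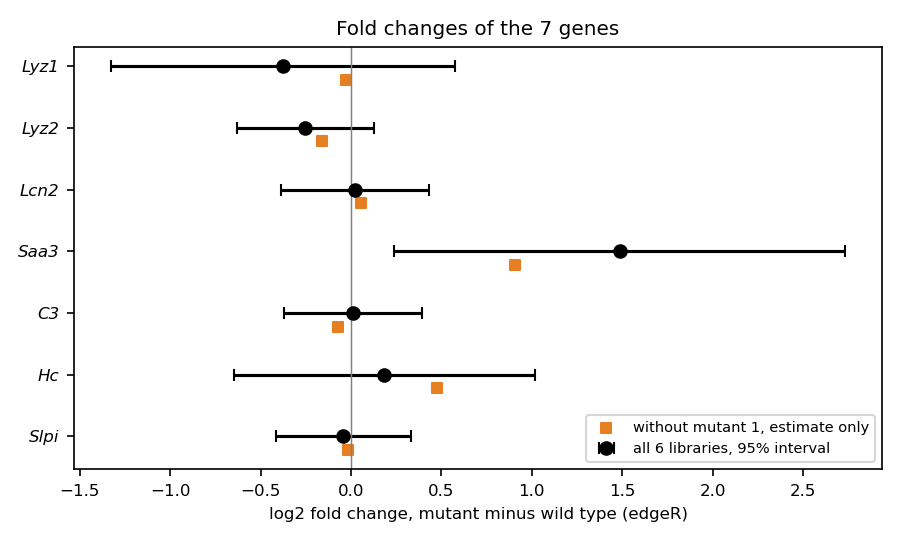
Log2 fold change of mutant minus wild type for the 7 genes from edgeR. Black points and bars are the estimates and 95% intervals with all 6 libraries, and orange squares are estimates without mutant 1. The interval of Saa3 (0.24 to 2.73) lies above 0 and the others include 0, and without mutant 1 Lyz1 moves from -0.38 to -0.03 and Hc from 0.18 to 0.48.

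Genes that act with the members were read from 5 lists, and none of their tested genes passed the threshold in edgeR, as in the whole table (0%). Of 9 tested complement components other than the members, 8 had positive and 1 negative log2 fold changes, with a median of 0.98 with all libraries and 0.12 without mutant 1. Of 12 regulators and receptors of complement, 9 were positive and 3 negative, with a median of 0.68, or -0.01 without mutant 1. No tested gene of either list had groups without overlap. These lists hold genes of macrophages and neutrophils, whose marker sums in mutant 1 were 11.0 and 39.5 times the mean of the other libraries. Factor B (Cfb), which forms the alternative convertase with C3, had 2110, 316 and 742 counts (mutants 1 to 3), against 432, 446 and 372 counts (wild types 1 to 3), a log2 fold change of 0.98 ± 0.50 that was 0.18 without mutant 1. Factor D (Cfd), the protease that activates factor B, had 0 counts in all mutants and at most 2 in any wild type. C1ra, a protease subunit of C1, stood at 19.1, 9.88 and 17.9 CPM (mutants 1 to 3), against 10.01, 9.25 and 10.06 CPM (wild types 1 to 3), a log2 fold change of 0.68 ± 0.25 (0.51 without mutant 1). C1qa, a recognition chain of C1, stood at 10.00, 0.56 and 0.63 CPM (mutants 1 to 3), against 0.73, 0 and 0.12 CPM (wild types 1 to 3).

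Of the receptors for the complement fragments, C3ar1 and C5ar1 had few counts in most libraries. The C3a receptor gene C3ar1 had 115, 0 and 6 counts (mutants 1 to 3), against 2, 0 and 0 counts (wild types 1 to 3). The C5a receptor gene C5ar1 had 222, 0 and 19 counts (mutants 1 to 3), against 20, 14 and 4 counts (wild types 1 to 3), and its log2 fold change of 2.19 turned to -0.64 without mutant 1. The alternative C5a receptor gene, listed as Gpr77 (C5ar2), stood at 9.54, 5.56 and 10.4 CPM (mutants 1 to 3), against 17.9, 14.7 and 9.69 CPM (wild types 1 to 3), a log2 fold change of -0.72 ± 0.30 (edgeR adjusted p = 0.737). Mutant 3 lay above wild type 3, so the groups overlapped. Itgam, a chain of complement receptor 3 on myeloid cells, stood at 26.4, 0.39 and 1.52 CPM (mutants 1 to 3), against 0.69, 0.16 and 0.37 CPM (wild types 1 to 3).

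Among 17 tested genes for other secreted antimicrobial proteins, 7 were positive and 10 negative, with a median of -0.11 (-0.09 without mutant 1). Cxcl15, a lung chemokine for neutrophils that is also 1 of the 10 AT2 markers, stood at 7933, 10218 and 9511 CPM (mutants 1 to 3), against 13955, 11814 and 11337 CPM (wild types 1 to 3), so each mutant lay below each wild type. Its log2 fold change was -0.42 ± 0.15 with an edgeR adjusted p of 0.737, so it was not called. Of the 17 genes it alone had groups without overlap, which 11.7% of all tested genes had, and it was named for its small p. Bpifb1, an airway secretory protein gene and 1 of the 9 club and goblet markers, stood at 47.0, 2.14 and 0.74 CPM (mutants 1 to 3), against 1.51, 1.24 and 0.49 CPM (wild types 1 to 3). Ltf, which encodes the iron-binding lactoferrin and is also among the neutrophil markers, had 1158, 26 and 15 counts (mutants 1 to 3), against 87, 9 and 6 counts (wild types 1 to 3). Its log2 fold change was 3.03 with all libraries, -0.89 without mutant 1 and -1.35 without both mutant 1 and wild type 2. In all 3 pairs of the same replicate number the mutant was higher, and with that number as a block the estimate was 2.24 (edgeR unadjusted p = 0.0032, adjusted p = 0.563), which was not called. This pairing, too, is not stated by the labels.

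Receptors and regulators of the acute-phase response were evenly divided, with 10 of 19 positive, 9 negative and a median of 0.0025 (-0.06 without mutant 1). Socs3, the feedback inhibitor of STAT3 signalling, averaged 177 ± 22.7 CPM in the mutants and 223 ± 9.45 CPM in the wild types, and Tnfrsf1a, a receptor of tumour necrosis factor, 105 ± 3.45 and 121 ± 6.52 CPM (SD, n = 3 each). Both had log2 fold changes of -0.33 ± 0.11 and -0.21 ± 0.07, and both had an edgeR adjusted p of 0.737. They were the 2 of the 19 genes whose groups did not overlap, beside 11.7% of all tested genes, and were named for their small p. Of 9 tested partners of Lcn2 and Slpi, 3 were positive and 6 negative, with a median of -0.01 (-0.05 without mutant 1). Slc22a17, described as a receptor of lipocalin 2, averaged 31.4 ± 2.41 CPM in the mutants and 38.2 ± 3.04 CPM in the wild types, without overlap (log2 fold change -0.28 ± 0.10, edgeR adjusted p = 0.737). Grn, whose product progranulin is guarded from elastase by the Slpi protein, averaged 184 ± 26.8 CPM in the mutants and 159 ± 0.85 CPM in the wild types, without overlap, with a log2 fold change of 0.21 ± 0.11 (0.09 without mutant 1). Slc22a17 and Grn were the 2 of the 9 genes without overlap, again beside 11.7% of all tested genes, and had the smallest p of their list. Elane, the neutrophil elastase gene, had 0 counts in all mutants and at most 2 counts in any wild type.

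**Figure D5:**
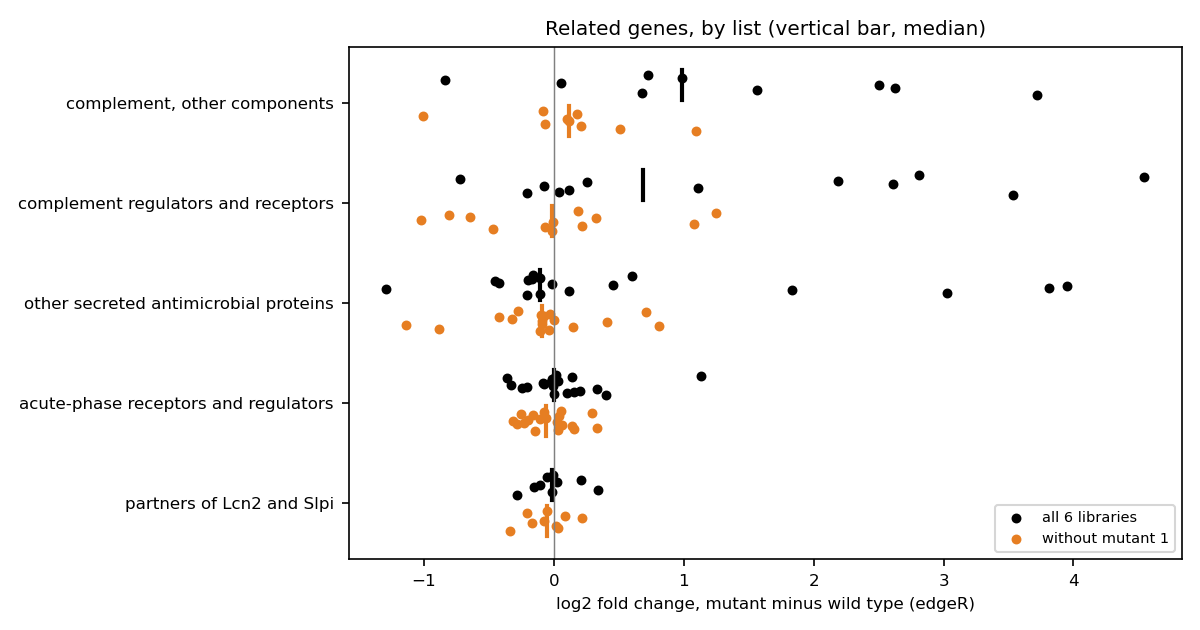
Log2 fold change of mutant minus wild type for tested genes of the 5 lists, with all 6 libraries (black) and without mutant 1 (orange). Points are genes and vertical bars are list medians. The medians of the complement lists are 0.98 and 0.68 with all libraries and 0.12 and -0.01 without mutant 1, and the other lists have medians between -0.11 and 0.0025.

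The genes most like each member over the 6 libraries were sought among 8621 other genes that averaged at least 10 CPM, by the mean absolute difference of log2 CPM after centring each gene on its own mean. For Saa3 the nearest was Cfb, at 0.30, followed by Cotl1, an actin-binding protein gene, at 0.32 and Psap, the gene of the lysosomal saposin precursor, at 0.36. These 3 genes shared a maximum in mutant 1, and without it the difference was 0.36, 0.37 and 0.40. For Lyz1 the nearest were Mrc2, a collagen-binding receptor gene, at 0.18, Tmem178 at 0.18 and Serpind1, the gene of heparin cofactor II, at 0.23. Without mutant 1 their order changed, with Serpind1 at 0.12, Tmem178 at 0.17 and Mrc2 at 0.18. For Hc they were Cybrd1, a ferric reductase gene, at 0.16, Tspyl4 at 0.18 and Steap2, a metalloreductase gene, at 0.20, and without mutant 1 these were 0.11, 0.16 and 0.19. For Lyz2 they were Magt1, Optn and Cog6 (0.04 to 0.05), for Lcn2 Baiap3, Tomm6 and Zfp738 (0.04 to 0.07), for C3 Rhot2, Agk and Zfp651 (0.03 to 0.05) and for Slpi Fbxo44, Dnajc30 and Zw10 (0.05 to 0.06). Likeness over 6 libraries is a description only.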

How the data were processed

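RNA-seq libraries were made with a TruSeq mRNA kit from sorted cells and sequenced together on 1 flow cell, per the labels' protocols. The labels name different sequencers in different fields, so the instrument is not settled. The genome build mm9 and the tools CASAVA and DESeq2 are named in the submitters' processing notes. The aligner, counting program, annotation and use of strand are not named by the sources used here, so paralogs and overlapping genes can share reads. Each library has its own deposited table of raw counts, whole numbers by gene symbol without normalization.

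Genes were filtered with filterByExpr, scaled by TMM and tested with edgeR 4.0.16 (quasi-likelihood F-test, two-sided, mutant minus wild type, R 4.3.3), with Benjamini-Hochberg adjustment over 12899 genes and a threshold of 5%. The procedure was also run on counts simulated with the spread fitted here, to check that known fold changes were returned. Those counts modelled no library that stood apart as mutant 1 did. Gene levels are TMM-normalised CPM, while marker sums, Xist and Ddx3y are CPM computed from the library total. Libraries had 22511461 to 30695994 counts. The exact permutation test used scipy 1.17.1. Log2 CPM for the likeness measure had a prior count of 2. Lengths and coding sequences came from GENCODE M21 on GRCm38, and promoters (all 7 genes matched) from RefSeq on GRCm38.p6.

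The members and lists were chosen with earlier results of these data known. Of 176 list entries, 7 were matched through an older symbol and 1 was not matched. Other genes are named by rule: Dlk1, 9 partners or relatives of the members, the 2 genes of each list with the smallest p, and the 3 genes most like each member. Xist and Ddx3y were named after their values were seen.

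Replicates differed by more than sampling noise (chi-square per degree of freedom 18.4 to 76.7 within groups). After subtraction of group means, mutant libraries 1, 2 and 3 correlated at 0.31, 0.21 and 0.17 with the wild types of the same number. Libraries of unlike number correlated at -0.25 to 0.069. Deviations from a group mean cancel within the group, so higher values for some pairs force lower values for others. The contrast between same and unlike numbers is thus partly built in. The rule used, that each same-number value exceed 0.1, was met, but the values are low and pairing is not established. It is inferred from these data only, since the labels give no shared day or litter. Xist stood at 0 CPM in mutant 2 and 185 CPM in wild type 2, so number 2 joins libraries unlike in sex-linked genes. Alternatives were other scalings, no filter on low counts, DESeq2 1.42.0, limma-voom (limma 3.58.1) with sample quality weights, the replicate block, summed lysozyme counts and leaving out libraries. Leaving out mutant 1 and wild type 2 together was added after seeing the data.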

Additional observations from a re-analysis of the deposited data

How the results depend on the processing

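No member passed the 5% threshold under any alternative run (lowest adjusted p 0.419, Saa3 in limma-voom). No call among the members changed, while sizes, unadjusted p and some directions did. The count of called genes, 0 in edgeR with all libraries (849 at an unadjusted p under 0.05), was 46 in DESeq2 (27 higher), 0 to 1 when a library was left out (1 without wild type 3), and 0 under the other alternatives. With the replicate number as a block, Lcn2 turned to -0.0058 and C3 to -0.0028 on the log2 scale, and the block changed no other direction and no call among the members. Slpi turned to 0.014 with library totals and to 0.13 in limma-voom, and C3 to -0.074 without mutant 1 and wild type 2 together. Saa3 kept a positive and both lysozyme genes a negative sign under every alternative run.

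Leaving out 1 library at a time gave log2 fold changes of -0.62 to -0.029 for Lyz1, -0.35 to -0.16 for Lyz2, -0.18 to 0.16 for Lcn2, 0.91 to 1.82 for Saa3 (0.74 without mutant 1 and wild type 2 together), -0.074 to 0.16 for C3, -0.069 to 0.48 for Hc and -0.20 to 0.11 for Slpi. The difference in Lyz1 share ran from -2.71 to 1.15 percentage points. List medians ran from 0.12 to 1.36 for complement components, -0.012 to 0.84 for complement regulators, -0.091 to 0.086 for other antimicrobial proteins, -0.060 to 0.0100 for acute-phase regulators and -0.078 to 0.031 for partners of Lcn2 and Slpi. Of the other named genes, C5ar1 ran from -0.64 to 2.76 and Ltf from -0.89 to 5.32, negative without mutant 1 in both cases, and they were -0.61 and -1.35 without mutant 1 and wild type 2. The cause was not tested. The members other than Saa3 had at least 697 counts in every library, while Saa3 had as few as 26. Without wild type 2 alone the log2 fold changes were -0.46 for Lyz1, -0.35 for Lyz2 and -0.022 for Lcn2. For C3, Hc and Slpi they were 0.00063, 0.40 and -0.20, and for Saa3 1.30 (edgeR unadjusted p = 0.0883).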
